A study of Homo sapiens with 6 samples.

Results

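The RNAs described here encode 10 proteins of the ATM and ATR damage checkpoint, namely ATM, NBN, RAD50, CHEK2, TP53BP1, ATR, TOPBP1, ETAA1, RAD1 and WEE1. They were chosen by gene name from a table of 3152 RNAs that came down with PD-L1, and all 10 names were found once each. RNA immunoprecipitation was carried out in MDA-MB-231, a human triple-negative breast cancer cell line, with 3 repeats using an antibody against PD-L1 and 3 repeats using its IgG isotype. PD-L1 is a membrane protein, encoded by CD274, that binds the PD-1 receptor of T cells, and the isotype antibody measures RNA that sticks to antibody and beads. Both groups are the same cell line with formaldehyde crosslinking and no further treatment named in the labels, which do not say whether the repeats are separate cultures, so that p-values speak only of the spread between libraries, and this spread may be technical. Each RNA has 1 value per library in the authors' table, its peak scores added up. Per the design text only RNAs with at least a 5-fold excess over IgG were kept, so the direction of every comparison with IgG was fixed by the authors' selection on these same libraries.

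ATM and ATR are related protein kinases at the top of the damage response. ATM is activated at double-strand breaks through the MRE11, RAD50 and NBN complex and phosphorylates the checkpoint kinase CHEK2. ATR is recruited to single-stranded DNA at stalled forks and is activated by TOPBP1, which works with the ring-shaped clamp that contains RAD1, or by ETAA1. TP53BP1 gathers on chromatin around breaks and steers their repair, and WEE1 holds cells before mitosis by inhibitory phosphorylation of cyclin-dependent kinase. In cells, these proteins pause the cycle while DNA is repaired.

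For a sequencing assay it matters which of these RNAs have a near-identical copy elsewhere in the genome, since reads from such a stretch have more than 1 possible origin. Coding sequences of the 10 genes were compared with all transcripts of GENCODE 29 (GRCh38). Of these genes 8 had no copy of at least 100 bases at 95% identity outside their own locus. RAD1 is among these 8, although GENCODE annotates 2 pseudogenes by its name (RAD1P1 and RAD1P2). Untranslated parts and loci without an annotated transcript were not searched. In CHEK2, 256 of 1758 coding bases (14.6%) had such a copy, in 3 pseudogenes that include CHEK2P3 on chromosome 2 and CHEK2P5 on chromosome 10. In ATM the share was 127 of 9168 bases (1.39%), in a processed pseudogene on chromosome 7. The closest pair for each gene is shown as reference sequence, with the bases that differ in capitals. The ATM stretch covers coding positions 4111 to 4237 and the CHEK2 stretch positions 1588 to 1758, counted from the A of the start codon, and they carry 3 and 4 differences.
ATM, chromosome 11: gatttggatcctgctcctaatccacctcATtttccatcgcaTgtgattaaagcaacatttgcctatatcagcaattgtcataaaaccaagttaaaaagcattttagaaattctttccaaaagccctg
ATM pseudogene, chromosome 7: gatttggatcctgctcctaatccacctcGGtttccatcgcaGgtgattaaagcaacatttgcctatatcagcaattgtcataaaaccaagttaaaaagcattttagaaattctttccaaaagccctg
CHEK2, chromosome 22: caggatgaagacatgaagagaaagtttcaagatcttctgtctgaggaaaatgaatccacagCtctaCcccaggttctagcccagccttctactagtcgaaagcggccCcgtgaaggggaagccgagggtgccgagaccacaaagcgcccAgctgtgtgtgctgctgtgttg
CHEK2 pseudogene, chromosome 16: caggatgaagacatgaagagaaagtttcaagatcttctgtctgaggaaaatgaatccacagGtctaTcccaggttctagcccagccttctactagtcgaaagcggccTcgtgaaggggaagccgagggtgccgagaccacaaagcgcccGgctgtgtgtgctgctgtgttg
How the authors assigned reads that fit several places is not given in the sources used here, nor are peak positions, so these stretches are not shown as binding sites, and the CHEK2 score is uncertain by an unknown share.

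Before the single genes, the libraries need a description. Scores of the listed RNAs added up to 206525 and 217732 in PD-L1 repeats 1 and 2 and to 123921 in repeat 3, against 8353 in IgG repeat 1 and 19288 and 18823 in IgG repeats 2 and 3. Such totals over a selected list do not give the sequencing depth, which remains unknown. PD-L1 repeat 3 and IgG repeat 1 stood apart from their groups. Across RNAs, which are not independent replicates, its Spearman correlation with repeats 1 and 2 was 0.746 and 0.741, against 0.969 between repeats 1 and 2. That of IgG repeat 1 with IgG repeats 2 and 3 was 0.623 and 0.629, against 0.740 between those, and 2149 listed RNAs were at 0 in IgG repeat 1, against 1440 and 1396 in the others. The smallest score above 0 was 2.02, 1.81 and 3.72 in PD-L1 repeats 1 to 3 and 2.42, 2.06 and 2.06 in IgG repeats 1 to 3. A score of 0 therefore means that no peak was scored, and not that the RNA was absent. Of 7 mesenchymal breast cancer markers, 6 epithelial markers and 4 immune cell markers the table held 0, 1 (CLDN4) and 0, which in a selected table does not check the identity of the cells.

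All 10 RNAs scored higher with PD-L1, and in all 10 every PD-L1 score lay above every IgG score. In limma, with Benjamini-Hochberg adjustment over all 3152 RNAs, all 10 passed an adjusted p of 0.05. Of all listed RNAs 97.7% passed in this direction and 95.9% had groups that did not overlap, so these counts do not set the checkpoint RNAs apart. The median log2 difference, on the log2(score + 1) scale that understates changes of low scores, was 3.78 over the 10 RNAs and 3.42 over all listed RNAs. Without PD-L1 repeat 3, when all 10 again passed and 90.6% of all listed RNAs did, the medians were 4.34 and 3.61, and without IgG repeat 1 they were 3.12 and 3.18. With all 6 libraries and a pseudocount of 0.01 the order turned, with medians of 5.73 over the 10 and 7.15 over all listed RNAs. A single RNA tested by exact permutation of 3 against 3 libraries cannot go below a 2-sided p of 0.1. When the libraries were rescaled to equal totals over the listed RNAs, which removes the enrichment common to them, the medians were 1.10 and 1.76. Rescaling leaves a score of 0 at 0, and CHEK2 and ETAA1, the 2 members at 0 in all 3 IgG libraries, were the 2 that still passed (limma). Of all listed RNAs 31.4% were then called higher, and 956 of these 990 were among the 1000 RNAs at 0 in all 3 IgG libraries, against 34 of the 2152 RNAs with an IgG score, so both passes go with the zeros and do not set these RNAs apart. TP53BP1 and WEE1 turned lower with PD-L1 without passing, as 20.8% of all listed RNAs were lower under that scaling.

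**Figure D1:**
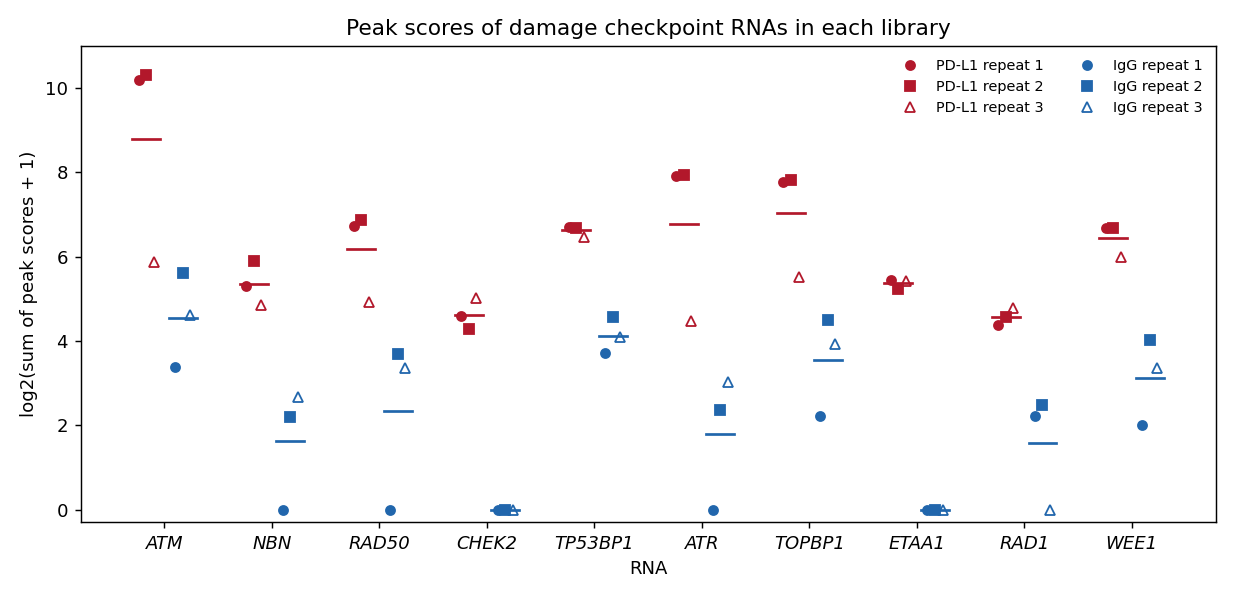
Sum of peak scores of each RNA, as log2(score + 1), in the 3 PD-L1 libraries (red, left) and the 3 IgG libraries (blue, right), with a bar at the group mean on that scale. ATM, ATR, TOPBP1 and RAD50 have an open triangle (PD-L1 repeat 3) far under the other PD-L1 points, while CHEK2 and ETAA1 are at 0 in all 3 IgG libraries.

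The kinase ATM had the highest score of all listed RNAs in PD-L1 repeats 1 and 2, at 1177 and 1266, and 57.2 in PD-L1 repeat 3, against 9.36, 48.1 and 23.7 with IgG. The groups did not overlap, but PD-L1 repeat 3 was 1.19 times the highest IgG score, and ATM ranked 598 in that library. The group means were 833 ± 674 with PD-L1 and 27.0 ± 19.6 with IgG (SD, n = 3 each), a ratio of 30.8. The log2 difference was 4.25 ± 1.33 (SE, adjusted p = 0.0199, limma). It did not pass when PD-L1 repeat 1 (adjusted p = 0.0851), PD-L1 repeat 2 (0.0849) or IgG repeat 1 (0.0546) was left out, and was 5.72 without PD-L1 repeat 3 (adjusted p = 0.00374, limma). With rescaled libraries it was 0.71 (adjusted p = 0.652, limma). Among the listed RNAs ATM also stood high with IgG, at percentiles of 92.3, 98.6 and 94.1 in IgG repeats 1 to 3. These percentiles count the 2149, 1440 and 1396 listed RNAs at 0 in those libraries, and RNAs outside the list were not ranked. C11orf65 of the opposite strand overlaps ATM over 60.6 kb and was not analysed here. NPAT, also of the opposite strand and in the table, overlaps ATM by 0.159 kb. Whether strand was used in scoring is not given in the sources used here.

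The break sensors RAD50 and NBN, which with MRE11 form the complex that tethers DNA ends and brings in ATM, were both in the table. RAD50, the coiled-coil ATPase of the complex, scored 106, 117 and 29.5 with PD-L1, against 0, 11.8 and 9.26 with IgG. Its PD-L1 repeat 3 was again the low value of its group, and the groups were apart by 2.49 times at their nearest libraries. The difference was 3.84 ± 1.11 on the log2 scale (SE, adjusted p = 0.0153, limma), and 2.66 without IgG repeat 1, where RAD50 was at 0 (adjusted p = 0.0122, limma). The call was lost when PD-L1 repeat 1 (adjusted p = 0.0671) or PD-L1 repeat 2 (0.0687) was left out, with pseudocounts of 0.1 (0.0606) and 0.01 (0.11) or with rescaled libraries (0.545, limma). GENCODE also annotates a second protein-coding gene on the same strand that overlaps RAD50 over 90.1 kb, so that their reads may not be separable.

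NBN, the subunit that binds ATM, scored 38.4, 58.4 and 27.9 in the PD-L1 libraries and 0, 3.60 and 5.40 in the IgG libraries. Here the spread within the PD-L1 group was smaller, with repeat 3 at 0.577 of the mean of repeats 1 and 2. The log2 difference was 3.72 ± 0.76 (SE, adjusted p = 0.00397, limma). Without IgG repeat 1, where NBN was at 0, it was 2.91 (adjusted p = 0.00195, limma). The call was lost with a pseudocount of 0.01 (6.10, adjusted p = 0.0828) and with rescaled libraries (1.48, 0.455, limma). MRE11A, the nuclease of the complex, was not analysed here.

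CHEK2, the kinase that carries the ATM signal to cell cycle targets, scored 23.0, 18.3 and 31.4 with PD-L1 and 0 in all 3 IgG libraries. In contrast to ATM its highest score was in PD-L1 repeat 3. The log2 difference was 4.63 ± 0.31 (SE, adjusted p = 7.52e-05, limma). No fold is given against a group listed at 0, and the pseudogene copies shown above apply to this value. With an IgG group at 0, the size of the difference depends on the pseudocount, from 3.71 with zeros set to the smallest score to 11.2 with a pseudocount of 0.01. It passed under each of the 12 alternatives that could be fitted, with an adjusted p of at most 0.00177 (limma). Its IgG values were equal to each other under all of them, so these passes are not independent checks. With rescaled libraries 95.6% of the RNAs at 0 in all 3 IgG libraries were called higher too.

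TP53BP1, the chromatin-bound mediator, scored 104, 102 and 88.0 with PD-L1, against 12.1, 22.6 and 16.2 with IgG. The PD-L1 scores lay close together (98.0 ± 8.66, SD, n = 3). The ratio of group means of 5.77, against 16.97 ± 5.32 with IgG, lies close to the 5-fold at which the authors kept an RNA. The log2 difference was 2.50 ± 0.33 (SE, adjusted p = 0.00073, limma) and -1.03 with rescaled libraries (adjusted p = 0.0681, limma). TUBGCP4, a gene of the opposite strand that overlaps TP53BP1 by 6.71 kb, was also in the table, with 61.5, 67.1 and 6.37 in the PD-L1 libraries and 9.07, 2.83 and 3.60 in the IgG libraries. Libraries were made with a stranded kit, but whether strand was used in scoring is not given in the sources used here.

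ATR, the kinase of replication stress, scored 239, 242 and 21.4 with PD-L1, against 0, 4.11 and 7.21 with IgG. As for ATM, PD-L1 repeat 3 lay far under the other PD-L1 libraries but above every IgG library, here by 2.97 times. The ratio of group means was 44.4, the highest of the 8 RNAs with an IgG score, and the log2 difference was 4.98 ± 1.22 (SE, adjusted p = 0.00813, limma). The difference was 6.12 without PD-L1 repeat 3 (adjusted p = 0.00792, limma). It did not pass with a pseudocount of 0.01 (7.33, adjusted p = 0.0673) or with rescaled libraries (2.69, 0.273, limma). GENCODE also annotates a gene on the same strand that overlaps ATR over 7.02 kb, so that their reads may not be separable there.

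The ATR activators differed in pattern. TOPBP1, the scaffold that switches on ATR at the RAD1-containing clamp, scored 217, 226 and 44.8 in the PD-L1 libraries and 3.63, 21.6 and 14.2 in the IgG libraries. It followed the order of ATM and ATR within the PD-L1 group, and its lowest PD-L1 score was 2.07 times its highest IgG score. Its log2 difference was 3.49 ± 0.87 (SE, adjusted p = 0.00861, limma), and 0.036 with rescaled libraries (adjusted p = 0.961, limma).

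ETAA1, which is brought to forks by the single-stranded DNA binding protein RPA and activates ATR there, scored 42.6, 36.5 and 41.8 with PD-L1 and 0 in all 3 IgG libraries. Of the 10 RNAs it had the smallest SD relative to its PD-L1 mean (40.3 ± 3.32, SD, n = 3), and repeat 3 lay between repeats 1 and 2. Its log2 difference was 5.36 ± 0.26 (SE, adjusted p = 5.44e-05, limma), and with rescaled libraries 4.56 (adjusted p = 0.000309, limma). With an IgG group at 0 the size of this difference is set by the pseudocount, and it was 4.47 with zeros set to the smallest score, 8.65 with a pseudocount of 0.1 and 11.97 with 0.01.

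RAD1, a subunit of the clamp loaded at sites of damage, scored 19.8, 22.7 and 26.7 with PD-L1, against 3.63, 4.63 and 0 with IgG. PD-L1 repeat 3 was the highest, and the PD-L1 scores were at least 4.27 times the highest IgG score. The log2 difference was 3.01 ± 0.70 (SE, adjusted p = 0.0065, limma). With a pseudocount of 0.01 it did not pass (5.37, adjusted p = 0.103), nor with rescaled libraries (0.43, 0.834, limma). BRIX1 of the opposite strand overlaps RAD1 by 3.61 kb and was not analysed here.

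WEE1, the kinase that restrains entry into mitosis, scored 102, 101 and 62.8 in the PD-L1 libraries and 3.02, 15.2 and 9.26 in the IgG libraries. It was the only 1 of the 10 that is not on the authors' deposited list of DNA damage genes. The groups were apart by 4.14 times at their nearest libraries, and the log2 difference was 3.32 ± 0.57 (SE, adjusted p = 0.0021, limma). With rescaled libraries it was -0.089 (adjusted p = 0.852, limma).

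**Figure D2:**
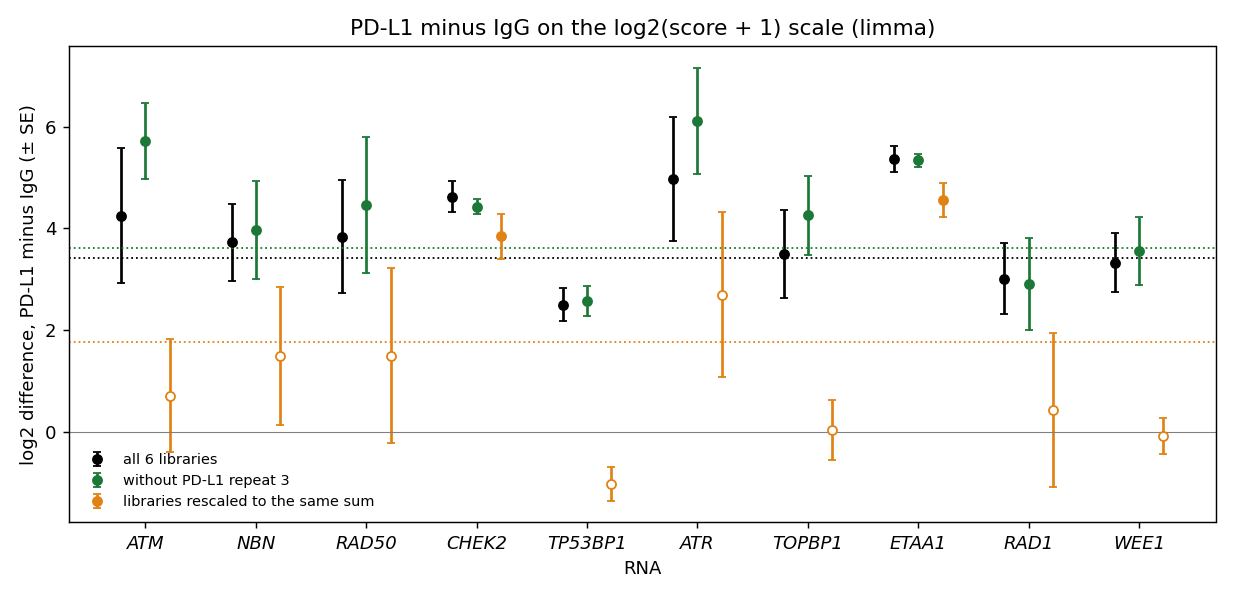
Difference between PD-L1 and IgG on the log2(score + 1) scale with its SE, for all 6 libraries (black), without PD-L1 repeat 3 (green) and with libraries rescaled to the same sum (orange); filled points pass an adjusted p of 0.05 in limma, and dotted lines are the medians over all listed RNAs. After rescaling CHEK2 and ETAA1, both at 0 in all 3 IgG libraries, stay filled, and TP53BP1 (-1.03) and WEE1 (-0.089) fall under 0.

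The 10 RNAs differed in how they behaved within the PD-L1 group. As a share of the mean of repeats 1 and 2, PD-L1 repeat 3 was at 0.0468 for ATM, 0.0889 for ATR, 0.202 for TOPBP1 and 0.265 for RAD50. It was at 0.577 for NBN, 0.619 for WEE1 and 0.855 for TP53BP1. It was at 1.06 for ETAA1, 1.26 for RAD1 and 1.52 for CHEK2. Repeat 2 was at 0.797 (CHEK2) to 1.52 (NBN) of repeat 1. Over all listed RNAs the median share for repeat 3 was 0.715 (quartiles 0.429 and 1.09, 3145 RNAs with a value). ATM had the 5th lowest share of these RNAs and ATR ranked 30 from the lowest. Repeat 3 was under both other repeats in 7 of the 10 RNAs (70.0%) and in 63.8% of all listed RNAs. The cause of the lower scores in repeat 3 was not tested.

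**Figure D3:**
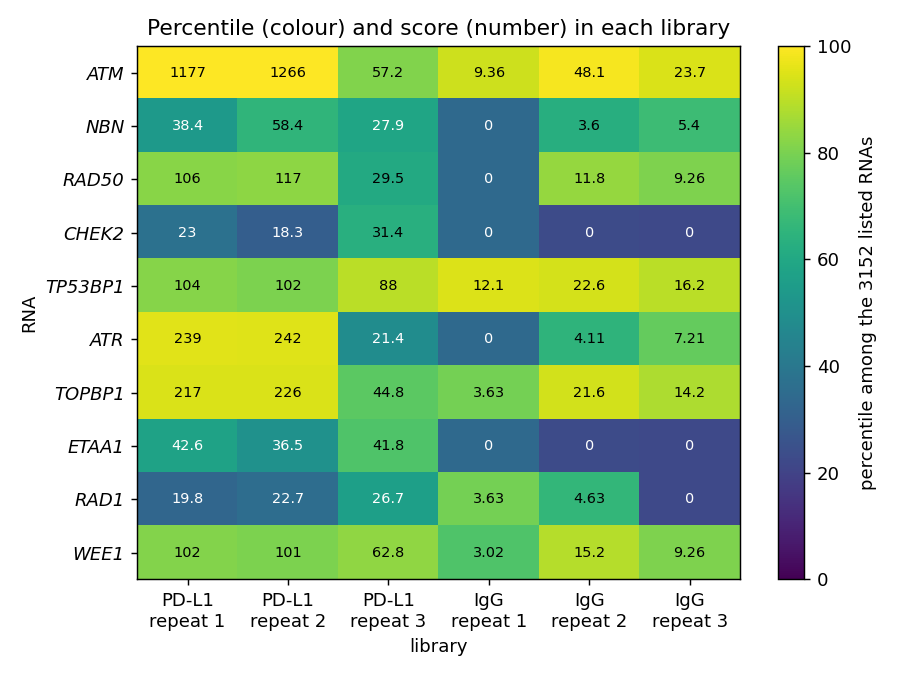
Percentile of each RNA among the 3152 listed RNAs within each library (colour) with its score (number), PD-L1 libraries left and IgG libraries right. Within PD-L1 repeat 3 ATR is at the 48.5 percentile, against 95.4 and 95.05 in repeats 1 and 2, whereas CHEK2 is at 63.0 against 37.4 and 29.8.

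Position within a library does not depend on that library's scale. By position ATM, ATR, TOPBP1 and RAD50 stood lower in PD-L1 repeat 3 than in both other repeats, and the other 6 RNAs did not. RAD50, for example, was at the 82.4, 83.1 and 60.6 percentile in PD-L1 repeats 1 to 3. CHEK2 was at 37.4, 29.8 and 63.0, and RAD1 at 33.1, 35.9 and 56.6. WEE1 differed least, at 81.5, 80.2 and 83.5. With rescaled libraries, an alternative chosen after the data were seen, repeat 3 was still at 0.0802 (ATM), 0.152 (ATR), 0.346 (TOPBP1) and 0.454 (RAD50) of the mean of the others, and at 2.59 for CHEK2. The median share over the 10 RNAs was 0.598, and 1.03 after rescaling, against 0.715 and 1.22 over all listed RNAs.

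Exon number moved with this difference. By GENCODE annotation, exons of the isoform with the longest coding sequence numbered 63 in ATM, 47 in ATR, 28 in TOPBP1 and in TP53BP1, and 25 in RAD50, then 16 in NBN and in CHEK2, 11 in WEE1 and 6 in ETAA1 and in RAD1. The 4 RNAs with the lowest share in repeat 3 were thus among the 5 with the most exons, and TP53BP1 was the exception. Correlations with the share in repeat 3 used its log2 value after 1 was added to both scores. The Spearman correlation with exon number was -0.789 over the 10 RNAs and -0.343 over 3142 listed RNAs with an annotation. These are descriptions across RNAs that share the same 3 libraries. Over the table the median share was 1.05 for the 568 RNAs with 1 to 5 exons, 0.849 for 787 RNAs with 6 to 10 exons and 0.64 for 1098 RNAs with 11 to 20. It was 0.56 for 457 RNAs with 21 to 30 exons, 0.552 for 131 RNAs with 31 to 40 and 0.385 for the 101 RNAs with over 40 exons, ATM and ATR among them. The mean PD-L1 score also moved with exon number (0.384 over the table), and so did coding length with the share in repeat 3 (-0.806 over the 10 RNAs, -0.186 over the table). The part of length, level or exon number in the pattern was not tested.

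**Figure D4:**
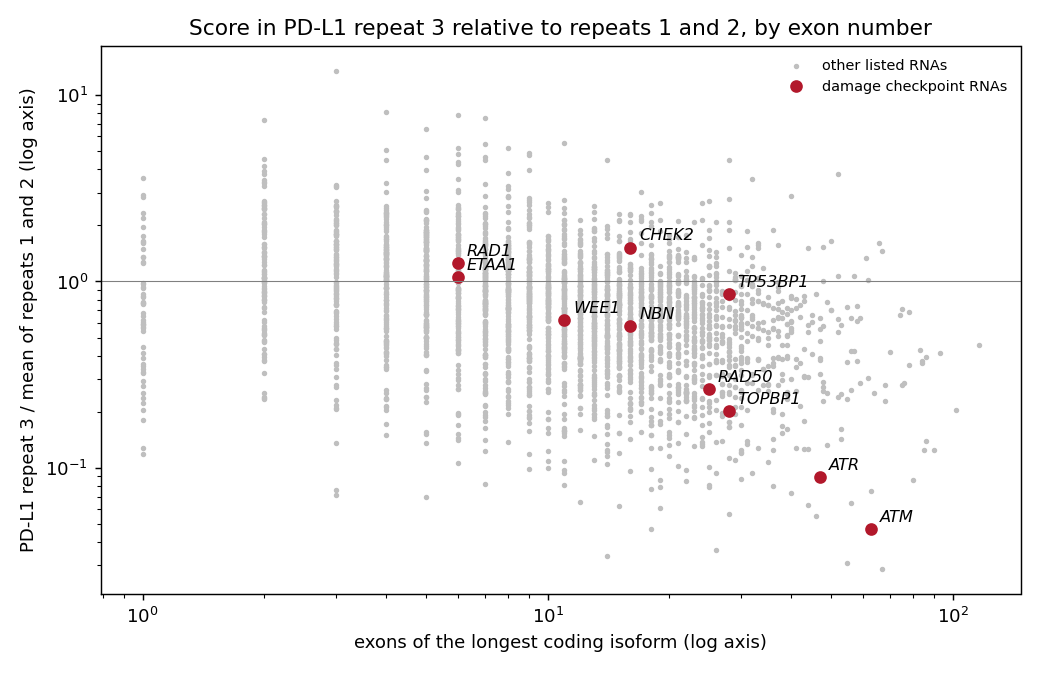
Score in PD-L1 repeat 3 divided by the mean of PD-L1 repeats 1 and 2, against the number of exons, both on log axes, for the 10 checkpoint RNAs (red, named) and the other listed RNAs (grey). ATM (63 exons, 0.0468) and ATR (47 exons, 0.0889) sit at the lower right, RAD1 and ETAA1 (6 exons each, 1.26 and 1.06) near 1.

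Levels of different RNAs can be compared only per length, and the scores were divided by the coding length. ATM had 128, 138 and 6.24 score units per coding kb in PD-L1 repeats 1 to 3, followed in order of the mean by WEE1 (52.7, 52.0 and 32.4), TOPBP1 (47.5, 49.5 and 9.81) and RAD1 (23.4, 26.8 and 31.6). The means then ran through RAD50 (21.3), ATR (21.1), NBN (18.4), TP53BP1 (16.5) and ETAA1 (14.5) to CHEK2 (13.8). In each step of this order the ranges of neighbouring RNAs overlapped over the 3 PD-L1 libraries. Coding length leaves out the untranslated parts. RAD1 has 0.846 coding kb in a transcript of 5.77 kb, and CHEK2 has 1.76 coding kb in 1.97 kb. The order therefore depends on the length used, and scores per kb of transcript were not computed. The median over the 10 RNAs was 21.2 score units per coding kb, against 18.0 over 3129 listed RNAs with a coding length. Per 100 kb of gene span instead, ATM (568), WEE1 (448) and ETAA1 (273) were highest and CHEK2 (44.3) was lowest. The 10 genes had a median of 20.5 exons and a median coding length of 3.36 kb, against 12 exons and 1.78 kb over the annotated RNAs of the table. Their coding sequences had a median of 40.03% G and C, from 37.1% in ETAA1 to 51.5% in WEE1, against 46.1% over the table.

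Over the 6 libraries, with each log2 profile centred on its own mean, the 5 RNAs at the smallest Euclidean distance from ATM were TTC14 (1.24), FAM133B (1.37), P2RX2 (1.40), CHD1 (1.42) and MICAL3 (1.45), against a median distance of 3.88 over the table. For ATR they were MED23 (0.497), HEATR5B (0.538), TAF2 (1.02), REPS1 (1.05) and PDCD11 (1.19), against a median of 3.75. MED23, a Mediator subunit, scored 232, 236 and 28.0 with PD-L1, against 0, 3.09 and 7.46 with IgG, close to ATR in every library. Of the checkpoint RNAs, ATR was the 26th nearest RNA to ATM and TOPBP1 the 41st. Next came RAD50 (199), WEE1 (668), NBN (729), TP53BP1 (2050), ETAA1 (2144), CHEK2 (2378) and RAD1 (2770). From ATR the ranks were 42 for ATM, 86 for RAD50, 130 for TOPBP1, 344 for NBN and 890 for WEE1. They were 1468 for ETAA1, 1934 for CHEK2, 2464 for TP53BP1 and 3042 for RAD1.

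Of 53 other genes of the pathway, placed in 6 lists, 17 were in the table and the remaining ones were not analysed here. All 17 were called higher with PD-L1 in limma, as were 97.7% of all listed RNAs. Without PD-L1 repeat 3 all 17 were called too, as were 90.6% of all listed RNAs. With rescaled libraries 2 of the 17, MCPH1 and BRCA1, both at 0 in all 3 IgG libraries, were called higher. CDC25C was called lower, and TTI1, HUS1B, RFC4, RIF1, UIMC1 and MDM4 were lower without passing. Under that scaling 31.4% of all listed RNAs were called higher and 20.8% were lower with PD-L1. Among partners and relatives of the apical kinases 3 of 10 were listed. SMG1, the kinase of nonsense-mediated decay and a relative of ATM and ATR, scored 147, 154 and 11.3 in the PD-L1 libraries and 0, 5.66 and 8.75 in the IgG libraries. Its share in PD-L1 repeat 3, 0.0751, lay between those of ATM and ATR, and SMG1 has annotated pseudogene copies that leave its score uncertain. Copies were searched only for the 10 checkpoint RNAs, so the same limit may hold for other genes named here. TTI1 and TELO2, which help to fold and stabilise these kinases, had log2 differences of 2.68 and 2.93, with a share in repeat 3 of 0.854 and 0.70.

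Of 10 clamp and clamp loader genes 2 were listed. The loader subunit RFC4 scored 36.6, 37.3 and 21.8 with PD-L1, against 3.02, 3.34 and 10.0 with IgG. HUS1B, a paralogue of the clamp subunit HUS1, scored 131, 139.9 and 104 in the PD-L1 libraries and 13.3, 10.8 and 20.3 in the IgG libraries. The single exon of HUS1B lies inside EXOC2 on the same strand, so that reads of both cannot be told apart there. Of the 6 genes for single-stranded DNA and fork protection 0 were listed.

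Of 8 mediators on chromatin 4 were listed, with a median log2 difference of 3.79. RIF1, the partner of TP53BP1 in holding back end resection, scored 345, 341 and 89.0 with PD-L1, against 32.6, 44.0 and 41.4 with IgG. HERC2, a giant ubiquitin ligase, scored 320, 335 and 136 in the PD-L1 libraries and 3.93, 16.7 and 33.4 in the IgG libraries. PAXIP1, an adaptor that binds TP53BP1, and MCPH1 had log2 differences of 3.53 and 4.05, and MCPH1 was at 0 in all 3 IgG libraries. Of 7 genes of the BRCA1-A complex and its partners BRCA1 (log2 difference 4.12), BARD1 (3.30) and UIMC1 (2.86) were listed.

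Among 12 checkpoint effectors 5 were listed, with a median log2 difference of 3.00. They include the phosphatases CDC25A (3.00) and CDC25C (2.12), which undo the inhibition set by WEE1, and MDM2 (3.34) and MDM4 (3.07), which restrain p53. MDM4 scored 121, 164 and 69.9 with PD-L1, against 6.34, 13.9 and 21.1 with IgG. CHEK1, the main effector kinase of ATR, was not analysed here. CD274 itself scored 10.5, 26.5 and 23.4 in the PD-L1 libraries and 0, 2.83 and 4.63 in the IgG libraries.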

How the data were processed

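Libraries of RNA from 3 PD-L1 and 3 IgG precipitations were analysed from the authors' deposited table. Per the file headers its values are a score per RNA and library, the sum of peak scores. TopHat2 2.0.14, HOMER 4.8.3 and build hg19 appear in the submitters' processing notes, with no role stated. Peak settings and library sizes are not given here. The authors' deposited list of DNA damage genes gave membership only. Their enrichment table was not used.

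The planned test for scores, limma 3.58.1 (R 4.3.3), was fitted to log2(score + 1) of all 3152 RNAs, with Benjamini-Hochberg adjustment, and was tested on simulated data. Members, lists and tests were chosen with earlier results of these data known. Exons, lengths and base composition came from GENCODE 29 (GRCh38, isoform with the longest coding sequence, matched by symbol, then Entrez ID, for 3142 RNAs), and copies from BLAST 2.17.0 with at least 95% identity over 100 bases. The named RNAs are the 10 members, up to 4 listed genes per pathway list by mean PD-L1 score, the 5 nearest profiles to ATM and to ATR, and CD274. EXOC2, TUBGCP4, BRIX1, C11orf65, NPAT, CLDN4, MRE11A and CHEK1 were named outside this rule. Alternatives were pseudocounts, rescaling, a filter, replaced zeros, a variance trend, a replicate block and leaving out each library.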

Additional observations from a re-analysis of the deposited data

How the results depend on the processing

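All 10 checkpoint RNAs were called higher with PD-L1 in limma, as were 3078 of 3152 listed RNAs. The calls numbered 6 of the 10 and 2298 of the table with a pseudocount of 0.01. With rescaled libraries they numbered 2 of the 10 and 990 of the table. With the filter at the median PD-L1 score 8 of the 10 were tested and 8 called, and 1552 of the 1576 tested RNAs of the table. The median log2 difference was 3.78 over the 10 and 3.42 over the table. These medians were 4.64 and 5.39 with a pseudocount of 0.1, 5.73 and 7.15 with 0.01, and 1.10 and 1.76 with rescaled libraries. With the smaller pseudocounts the 10 thus lay under the table. Leaving out 1 library at a time gave 8 to 10 calls among the 10 and 2730 to 3032 in the table. The medians then ran from 3.12 to 4.34 over the 10 and from 3.18 to 3.61 over the table. With rescaled libraries TP53BP1 (-1.03) and WEE1 (-0.089) changed sign, as 655 of all listed RNAs (20.8%) were then lower with PD-L1. With a pseudocount of 0.1, replaced zeros or a variance trend 9, 10 and 10 of the 10 passed, and 2798, 3081 and 3096 of the table. The fit with the repeat number as a replicate block called 10 of the 10 and 3091 in the table. Deviations of same-numbered libraries from their group means correlated by -0.121, 0.071 and -0.079 across RNAs for repeats 1 to 3. Not every library correlated best with its own number. Each deviation is taken from a mean that includes the library itself, so these values cannot tell whether same-numbered libraries were paired. The depth is unknown, no counting interval could be given, and scores near the smallest listed scores are limited by the peak calling.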
